A study of Mus musculus with 9 samples.

Results

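Mitochondrial biogenesis is driven by a small set of nuclear regulators, and 8 of them were examined here in differentiated C2C12 cells: Ppargc1a, Esrra, Nrf1, Tfam, Ppara, Ppard, Thra and Rxra. They were named by gene symbol out of 15964 genes on the arrays, by a rule that uses no measured value, although earlier results of these data were known when they were chosen. Every probe set annotated to exactly 1 of these symbols was taken, which gave 22 probe sets. C2C12 is a mouse skeletal myoblast line whose cells fuse into myotubes when serum is withdrawn. The cells had spent 5 days in differentiation medium (2% horse serum, 37 °C) when total RNA was taken, and it was hybridised to 9 Affymetrix arrays, 3 replicates of each of the designs U74Av2, U74Bv2 and U74Cv2. No other treatment, genotype or time is labelled, and all arrays carry the same sample identifier, so the spread between replicates may be technical. With 1 condition there is no contrast to test, and the data show which regulators gave signal and how repeatably.

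In muscle, Ppargc1a encodes PGC-1alpha, a coactivator that binds no DNA itself and is recruited to promoters by transcription factors. Its partners include the orphan receptor ERRalpha (Esrra), nuclear respiratory factor 1 (Nrf1), the fatty acid receptors PPARalpha and PPARdelta (Ppara, Ppard) and the thyroid hormone receptor alpha (Thra). The PPARs and the thyroid hormone receptors bind DNA as heterodimers with a retinoid X receptor such as Rxra. Genes switched on by these factors include those of the respiratory chain and of fatty acid oxidation, and Tfam, whose product packages mitochondrial DNA and starts its transcription.

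A probe set is called detected here when its signal exceeded the background limit on all 3 arrays of its design. For each array the limit was set at the 95th percentile of the signals of controls whose targets mouse RNA should lack. The limits were 206 to 280 signal units (U74Av2), 430 to 963 (U74Bv2) and 725 to 1034 (U74Cv2). The SD of a multiple of the limit therefore includes the spread of these limits as well as that of the signal. Skeletal muscle markers were detected for 9 of 9 genes, fat markers for 1 of 7, liver markers for 1 of 6, and blood and endothelial markers for 2 of 6. Gapdh 3′ to 5′ signal ratios, a measure of RNA integrity, ranged from 0.827 to 0.906 over the 9 arrays, and those of beta-actin from 1.07 to 1.19. A low signal in bulk RNA cannot tell apart fewer cells expressing a gene and less RNA per cell.

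Of the 8 regulators, 6 were detected by at least 1 probe set, namely Esrra, Nrf1, Tfam, Ppard, Thra and Rxra, and Ppargc1a and Ppara were not. Of all genes, 62.0% were detected. All members have at least 2 probe sets, and of the genes with at least 2 probe sets 77.1% were detected, so 6 of 8 (75%) lay near the background. By probe set, 6 of 10 were detected on U74Av2, where 58.2% of all probe sets were. U74Bv2 gave 6 of 10 detected, against 43.8% of its probe sets, and U74Cv2 gave 1 of 2, against 31.6%. Over all designs 13 of 22 were detected, against 44.7%. These probe set shares cover all 36701 probe sets other than controls, including those with no gene symbol or with several, whereas each member probe set has 1. Of the 9 probe sets that were not detected, 7 lay below the limit on every array and 2 exceeded it on 2 of 3 arrays.

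The calls depended on how the limit was set. With the highest control as the limit 5 of 8 genes were detected (59.6% of all genes) and 12 probe sets (41.8% of all), and Tfam was lost. With all control families kept, strongly reacting ones included, 4 of 8 genes were detected (23.4% of all genes) and 5 probe sets (13.2% of all), and Tfam and Rxra were lost. Ppargc1a had no detected probe set under any of the rules tried.

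Milder rules moved Ppara. Requiring 2 of 3 arrays gave 7 of 8 genes (69.9% of all genes) and 15 probe sets (54.0% of all), with Ppara added. Without replicate 2 there were 7 genes (63.7%) and 14 probe sets (46.5%), again with Ppara. The gene count stayed at 6 without replicate 1 (63.7%, and 13 probe sets against 46.9%) and without replicate 3 (66.6%, and 14 probe sets against 50.1%). It was also 6 when each array's median served as the limit (59.2%, and 13 probe sets against 43.2%) and after quantile normalization (62.0%, and 13 probe sets against 44.7%). Plain _at probe sets alone gave 5 genes (60.1%) and 10 probe sets (45.9%), since the detected Tfam probe set has another suffix.

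**Figure D1:**
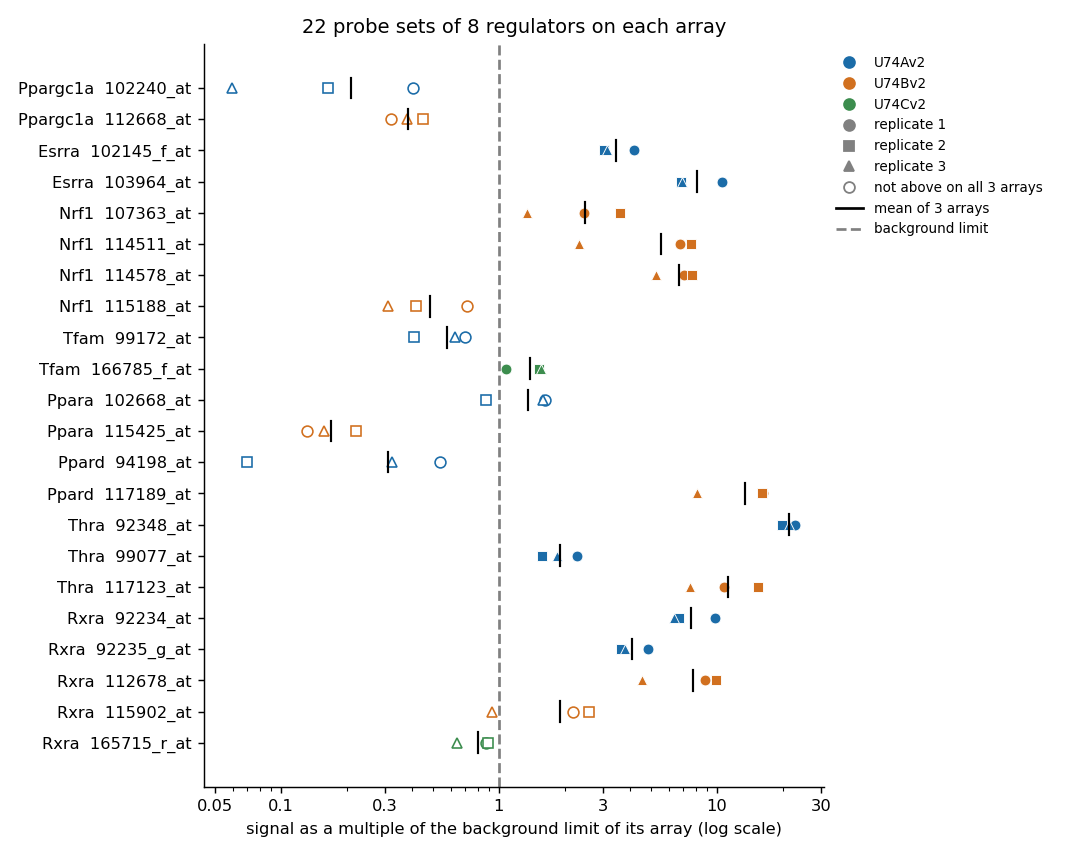
Signal of the 22 probe sets on each array, divided by that array's background limit (log axis); colours mark the design, symbols the replicate, open symbols probe sets that did not exceed the limit on all 3 arrays, and black bars the mean. Thra 92348_at has the highest mean multiple at 21.4, and both Ppargc1a probe sets lie left of the limit on every array.

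The coactivator itself gave no signal above background. On U74Av2, Ppargc1a (102240_at) read 82.9, 46.0 and 15.3 signal units in replicates 1, 2 and 3. On U74Bv2 its other probe set, 112668_at, read 159, 194 and 365. All 6 readings were below the limit, at 0.21 ± 0.18 and 0.38 ± 0.07 times the limit (SD, n = 3). The mean percentile of Ppargc1a signal within its arrays was 12.2 on U74Av2 and 23.8 on U74Bv2. Below the limit, differences between arrays carry little information, as the SD of log2 signal of 1.24 for 102240_at shows.

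Its relatives read differently. Ppargc1b, which encodes the closely related coactivator PGC-1beta, had signals of 20253, 26875 and 24103 on U74Cv2 (137124_at). That was 29.1 ± 8.8 times the limit (SD, n = 3), and all 3 arrays were far above it. The other Ppargc1b probe set, 116055_at on U74Bv2, read 549, 981 and 776 and exceeded the limit on 2 of 3 arrays. The array missed was replicate 3, at 0.81 times its limit of 963, while 549 in replicate 1 was 1.10 times its limit of 498. Pprc1, the third family member, was detected on U74Av2 at 503, 518 and 550, or 2.1 ± 0.3 times the limit (SD, n = 3). Probe sets differ in affinity, so these values do not rank the family members by transcript level.

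The RefSeq promoter table of assembly GRCm38.p6 held 7 of the 8 members. Each window of 300 bases (250 before the annotated start and 50 after) was searched on both strands for 4 motifs. These were the NRF1 motif, of the form capitalised below in Ppara with 1 base left free, TNAAGGTCA for ERRalpha, CCGGAAGT for the ETS factor GABP, and TGACGT, the core of the cyclic AMP response element (CRE). The GABP and CRE motifs were added after seeing the data. In 3 members a window held a match, none of them overlapping another motif, and the windows of Esrra, Nrf1, Ppard and Rxra held none. These promoters are shown because they carry the matches, 5′ to 3′ on the gene's strand and up to the base before the start, with matches in capitals.
Ppargc1a (chr5:51567726-51567975, strand -): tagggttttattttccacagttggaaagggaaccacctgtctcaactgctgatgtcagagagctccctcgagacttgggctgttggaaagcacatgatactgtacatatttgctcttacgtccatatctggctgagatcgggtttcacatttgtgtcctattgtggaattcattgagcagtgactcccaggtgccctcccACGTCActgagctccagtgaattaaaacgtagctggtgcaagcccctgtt
Tfam (chr10:71238045-71238294, strand -): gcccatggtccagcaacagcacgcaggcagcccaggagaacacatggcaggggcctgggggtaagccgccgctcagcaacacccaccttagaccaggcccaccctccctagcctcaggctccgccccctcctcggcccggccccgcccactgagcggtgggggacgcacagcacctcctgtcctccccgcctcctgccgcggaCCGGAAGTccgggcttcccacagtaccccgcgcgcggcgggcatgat
Ppara (chr15:85735526-85735775, strand +): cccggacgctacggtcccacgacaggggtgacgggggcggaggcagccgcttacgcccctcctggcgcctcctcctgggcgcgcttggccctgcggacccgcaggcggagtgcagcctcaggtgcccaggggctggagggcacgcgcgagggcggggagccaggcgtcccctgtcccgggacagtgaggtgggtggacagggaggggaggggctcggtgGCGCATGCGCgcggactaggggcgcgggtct
In Ppargc1a the CRE core lies at bases -50 to -45 from the start, on the opposite strand. In Tfam the GABP motif lies at -47 to -40, and in Ppara the NRF1 motif, which reads the same on both strands, at -31 to -22. Over the 32851 promoters of the table, 7.51% held the CRE core, 3.89% the GABP motif, 4.6% the NRF1 motif and 1.28% the ERRalpha motif. A match describes the sequence and is not evidence of binding.

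Among the DNA-binding partners, Esrra was detected by both of its probe sets, which are on U74Av2. The signals of 103964_at were 2178, 1922 and 1769, and those of 102145_f_at were 857, 851 and 806. The multiples of the limit were 8.1 ± 2.1 and 3.4 ± 0.6 (SD, n = 3). On both probe sets replicate 1 was highest and replicate 3 lowest, within 0.16 on the log2 scale of their means. The suffix _f_at marks a probe set that may cross-hybridise with related sequences, so 103964_at is the more specific reading. Its mean percentile was 76.3. The related receptor genes Esrrb and Esrrg had no detected probe set, with Esrrb at 0.46 ± 0.19 and 0.48 ± 0.13 times the limit and Esrrg at 0.12 ± 0.08 times (SD, n = 3).

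Nrf1 was measured by 4 probe sets, all on U74Bv2, and 3 were detected. The signals of 114578_at were 3509, 3306 and 5084 in replicates 1, 2 and 3. Those of 114511_at were 3376, 3270 and 2240. These 2 probe sets of the same gene moved in opposite directions in replicate 3, where 114578_at stood 0.39 above its own mean and 114511_at fell by 0.38 on the log2 scale. Their SDs of log2 signal, 0.34 and 0.33, were larger than those of 93.5% and 89.5% of the 200 detected probe sets nearest in signal. The third, 107363_at, read 1227, 1552 and 1295, and its replicate 3 was 1.3 times the limit. The fourth, 115188_at, lay below the limit on all 3 arrays with 357, 179 and 298.

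The multiples of the limit were 6.7 ± 1.2 for 114578_at, 5.6 ± 2.8 for 114511_at and 2.5 ± 1.1 for 107363_at (SD, n = 3). Nrf1 is not the same gene as Nfe2l1, a stress-response factor that has also been called NRF1. Nfe2l1 was detected at 45.4 ± 5.3 times the limit of U74Av2 (SD, n = 3).

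Tfam detection rested on 1 probe set that lay close to the limit. On U74Cv2, 166785_f_at read 1120, 1105 and 1224, which was 1.08, 1.52 and 1.56 times the limit of its arrays. All 3 arrays were above the limit, but replicate 1 narrowly. The mean percentile of 166785_f_at was 65.9, and the limits of U74Cv2 exceeded the median signal of each array. Its suffix marks possible cross-hybridisation. The other Tfam probe set, 99172_at on U74Av2, read 144, 114 and 161 and lay below the limit throughout, at 0.58 ± 0.15 times (SD, n = 3). With the highest control as the limit, or with probe sets of the plain _at suffix alone, no Tfam probe set was detected. The SD of log2 signal of 166785_f_at was 0.08, smaller than that of most detected probe sets of like signal (8.0% of 200 were smaller).

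The fatty acid receptors differed in detection. PPARalpha and PPARdelta both bind fatty acids and switch on genes of lipid use. Ppard (117189_at, U74Bv2) read 8066, 6917 and 7818, with a mean percentile of 96.3. This was 13.5 ± 4.6 times the limit (SD, n = 3), and the lowest multiple, 8.1 in replicate 3, came with the highest limit of that design. The U74Av2 probe set of Ppard, 94198_at, read 110, 19.6 and 82.9 and was below the limit on every array. Ppard detection therefore rested on 1 of 2 probe sets.

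Ppara lay at the edge of detection. Its U74Av2 probe set, 102668_at, read 334, 245 and 410, or 1.62, 0.87 and 1.60 times the limit. Replicate 2 fell below the limit, and without replicate 2 Ppara counted as detected. On U74Bv2 the signals of 115425_at were 65.9, 95.2 and 152, all below the limit. Pparg, the third receptor of this family and a fat cell regulator, was not detected at 0.64 ± 0.32 times the limit (SD, n = 3).

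Thra, which encodes the thyroid hormone receptors alpha, was detected by all 3 of its probe sets. On U74Av2, 92348_at read 4714, 5584 and 5483, at a mean percentile of 91.3. On U74Bv2, 117123_at read 5357, 6665 and 7226, at a mean percentile of 94.7. The third, 99077_at on U74Av2, read 470, 440 and 473, which was above the limit but at a mean percentile of 47.0. This probe set did not exceed the median signal of its arrays.

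The multiples were 21.4 ± 1.5 for 92348_at, 11.2 ± 4.0 for 117123_at and 1.9 ± 0.4 for 99077_at (SD, n = 3). On 117123_at replicate 1 was lowest, 0.25 below the mean on the log2 scale, and replicate 1 was washed on another fluidics station than replicates 2 and 3 of that design. Of the 6 detected member probe sets on U74Bv2, 3 stood above their own mean in replicate 1. On 92348_at, whose 3 arrays shared a station, replicate 1 was also lowest, 0.15 below the mean. The part of the station was not tested. Thrb, the other thyroid hormone receptor gene, had 3 probe sets and none detected, the highest at 1.5 ± 0.7 times the limit (SD, n = 3). Nr1d1, a clock repressor whose gene overlaps that of Thra in GRCm38.p6, was detected at 8.9 ± 2.3 times the limit (SD, n = 3). Whether either gene's probe sets read the other was not tested.

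Rxra, the heterodimer partner, was covered by 5 probe sets, of which 3 were detected. On U74Bv2, 112678_at read 4381, 4277 and 4370. Its SD of log2 signal, 0.019, was the smallest among the member probe sets, and 0.0% of the 200 detected probe sets nearest in signal had a smaller one. On U74Av2, 92234_at read 2015, 1880 and 1635, and 92235_g_at read 998, 1020 and 973. The suffix _g_at marks probes shared within a gene family or group.

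The multiples were 7.8 ± 2.8, 7.6 ± 1.9 and 4.1 ± 0.7 for 112678_at, 92234_at and 92235_g_at (SD, n = 3). The multiple of 112678_at ranged from 4.5 to 9.9 although its signal barely varied, because the limit of U74Bv2 ranged from 430 to 963. The 115902_at probe set read 1092, 1119 and 899 and missed the limit in replicate 3, at 0.93 times. That array had the limit of 963. The signal of 115902_at exceeded the median of all 3 arrays. With the median as the limit, or without replicate 3, Rxra had 4 detected probe sets. The U74Cv2 probe set 165715_r_at read 900, 649 and 503, below the limit on all 3 arrays. Rxrb was detected at 19.3 ± 5.0 times the limit, and Rxrg was not, at 0.15 ± 0.04 times (SD, n = 3).

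The SD of log2 signal falls with signal, so each of the 13 detected member probe sets was set beside the 200 detected probe sets of its design nearest in signal. In 7 of the 13 the SD was below the median of those neighbours, and in 6 it was above. On U74Av2 it was below in 3 of 6, on U74Bv2 in 3 of 6, and Tfam was below on U74Cv2. Those above were Esrra 103964_at, Nrf1 114511_at and 114578_at, Thra 92348_at and 117123_at, and Rxra 92234_at. The members as a group thus lay on both sides of like probe sets. The medians over all detected probe sets, without regard to signal, were 0.154, 0.178 and 0.238 on U74Av2, U74Bv2 and U74Cv2.

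**Figure D2:**
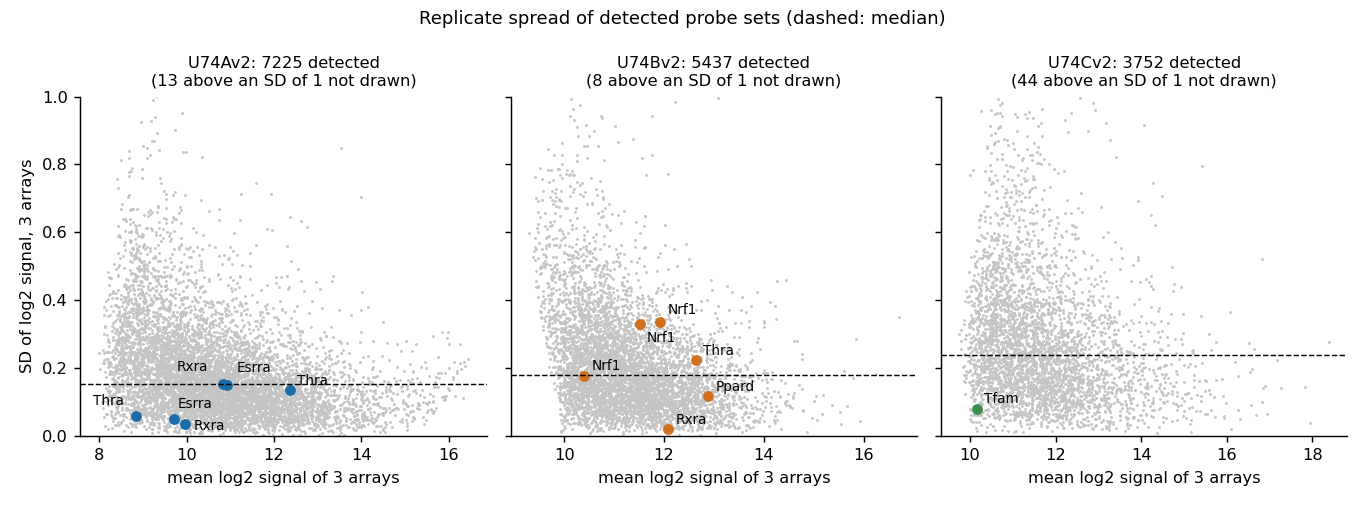
SD of log2 signal over 3 arrays against mean log2 signal for detected probe sets (grey) and detected members (coloured), with the design median as a dashed line; 13, 8 and 44 probe sets with an SD above 1 are not drawn on U74Av2, U74Bv2 and U74Cv2. The 2 Nrf1 points near 0.33 lie above the line and the U74Bv2 point of Rxra lies at 0.019.

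Deviations of the detected members from their own means were compared array by array, since the same replicate number is a different array on each design. On U74Av2 the median deviations of the 6 members were 0.03, 0.03 and -0.05 on the log2 scale in replicates 1, 2 and 3. On U74Bv2 those of the 6 members were -0.06, 0.02 and 0.03. Over all detected probe sets the medians of the 9 arrays lay between -0.0017 and 0.0104, nearer to 0 than the members' medians on these 6 arrays. Each member median rests on 6 probe sets of 3 or 4 genes, and no test was made.

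**Figure D3:**
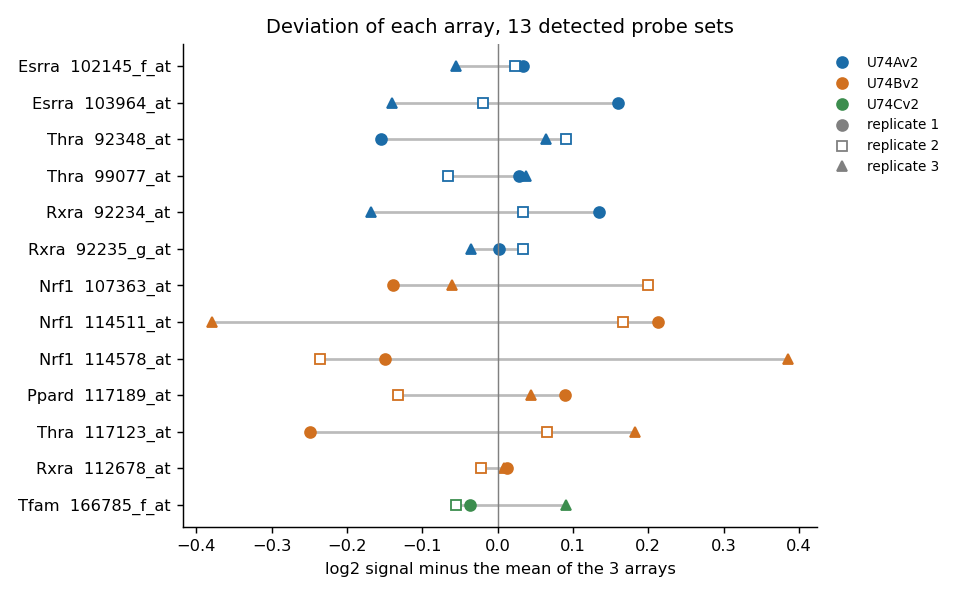
Log2 signal of each array minus the mean of the 3 arrays, for the 13 detected member probe sets; colours mark the design and symbols the replicate. The deviations of a probe set sum to 0, and those of Nrf1 114511_at and 114578_at in replicate 3 lie at opposite ends, -0.38 and 0.39.

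The wider pathway was described by 10 gene lists chosen for known roles. Together they held 199 measured genes, of which 163 (81.9%) were detected against 62.0% of all genes. The median of their highest multiples was 7.9, against 2.7 over all genes. The lists were not matched to other genes in the number of probe sets, so their counts are descriptions. Multiples depend on probe affinity and on the limits of each design, so they do not rank listed genes by transcript level. Their SDs include the spread of the limits, which on U74Bv2 ranged from 430 to 963. With all control families kept the count was 97, and the lists differed: 23 of 28 NRF1 and ERRalpha targets were then detected but 5 of 23 genes of mitochondrial DNA maintenance, 1 of 11 retinoid genes and 6 of 22 related receptors, against 23.4% of all genes.

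Known NRF1 and ERRalpha targets, most of them of the respiratory chain, were detected for 26 of 28 genes (92.9%), with a median multiple of 33.2. The list also held other mitochondrial genes, namely Cs, Mdh2, Idh3a, Alas1 and Surf1, all detected. Cox6c lay at 129 ± 17 times the limit, Atp5a1 at 97.9 ± 12.4 times and Cox6a1 at 81.5 ± 10.1 times (SD, n = 3), with cross-hybridisation possible for Cox6c and Cox6a1. Cox7a1, the muscle form of a cytochrome oxidase subunit, and Cyct, a testis cytochrome c, were not detected. Genes of mitochondrial DNA maintenance were detected for 20 of 23 (87.0%). Slc25a4, the muscle ADP/ATP carrier of the inner membrane whose probe set may cross-hybridise, lay at 85.0 ± 31.0 times the limit, Phb2 at 21.7 ± 4.8 times and Slirp at 18.7 ± 3.8 times (SD, n = 3). The helicase gene Twnk, Fastkd2 and Rnaseh1 were not detected. Mitochondrial dynamics and import gave 19 of 20 genes (95%). The highest multiples were those of the chaperones Hspd1 (95.4 ± 20.0 times) and Hspa9 (32.1 ± 7.6 times) and the fission factor Fis1 (75.5 ± 15.1 times, SD, n = 3). The Fis1 value comes from a probe set that may cross-hybridise, and 1 of its 4 probe sets was detected. Tomm22 was not detected.

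PPAR targets of fatty acid handling were detected for 17 of 22 genes (77.3%). Acaa2, a thiolase of mitochondrial beta-oxidation, lay at 75.1 ± 12.4 times the limit (SD, n = 3). The fatty acid binding protein gene Fabp3 lay at 48.4 ± 13.7 times and the lipid droplet gene Plin2 at 19.2 ± 2.2 times (SD, n = 3). The Fabp3 probe set has the suffix _r_at, given to sets that missed some of the design rules. Ucp3, Cd36, Acadvl, Cyp4a10 and Ehhadh were not detected. Of these, Cyp4a10 and Ehhadh are known as liver targets of PPARalpha.

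Of the genes that supply or answer thyroid hormone, 10 of 16 (62.5%) were detected. The highest were Myh7 at 56.9 ± 16.3 times the limit, Atp2a1 at 55.8 ± 13.1 times and Myh1 at 22.8 ± 6.5 times (SD, n = 3). These are contractile and calcium pump genes of muscle, and the probe sets of Myh7 and Atp2a1 may also read related transcripts. Slc2a4, Thrsp, Ucp3, Crym, Dio3 and Dio1 were not detected. Retinoid genes around Rxra were detected for 6 of 11 (54.5%). Rdh10, a retinol dehydrogenase, lay at 9.5 ± 4.4 times the limit, Dhrs3 at 8.1 ± 2.6 times and Crabp2 at 6.7 ± 0.9 times (SD, n = 3). Aldh1a1, Aldh1a3, Crabp1, Cyp26a1 and Stra6 were not detected. The shares of the thyroid and retinoid lists were close to or below that of all genes.

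Coactivators and corepressors were detected for 16 of 19 genes (84.2%). Besides Ppargc1b, the highest were the arginine methyltransferase gene Prmt1 at 34.2 ± 3.8 times the limit and Smarcd3, a chromatin remodelling subunit of muscle, at 15.4 ± 5.9 times (SD, n = 3). Sirt1, Perm1 and Ep300 exceeded the limit on 2 of 3 arrays each and so were not detected. Signals known to act on Ppargc1a were detected for 22 of 24 genes (91.7%). The transcription factor gene Mef2d lay at 35.9 ± 7.5 times the limit, the kinase Akt1 at 34.8 ± 6.3 times and the calcineurin subunit Ppp3r1 at 20.3 ± 4.5 times (SD, n = 3). Camk4 and Map2k6 were not detected.

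Other DNA-binding factors of mitochondrial genes, listed together with partner proteins of such factors, were detected for 13 of 15 genes (86.7%). Sp1 lay at 21.8 ± 10.1 times the limit and Nfe2l2 at 20.3 ± 6.9 times (SD, n = 3). The Sp1 value comes from 114456_i_at, a probe set without the plain _at suffix. Tfeb and the partner protein Keap1 were not detected. Of the related nuclear receptors, 14 of 22 (63.6%) were detected. Rara had the highest multiple at 24.2 ± 9.5 times the limit, followed by Rxrb and by Nr1d2 at 14.2 ± 5.9 times (SD, n = 3).

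**Figure D4:**
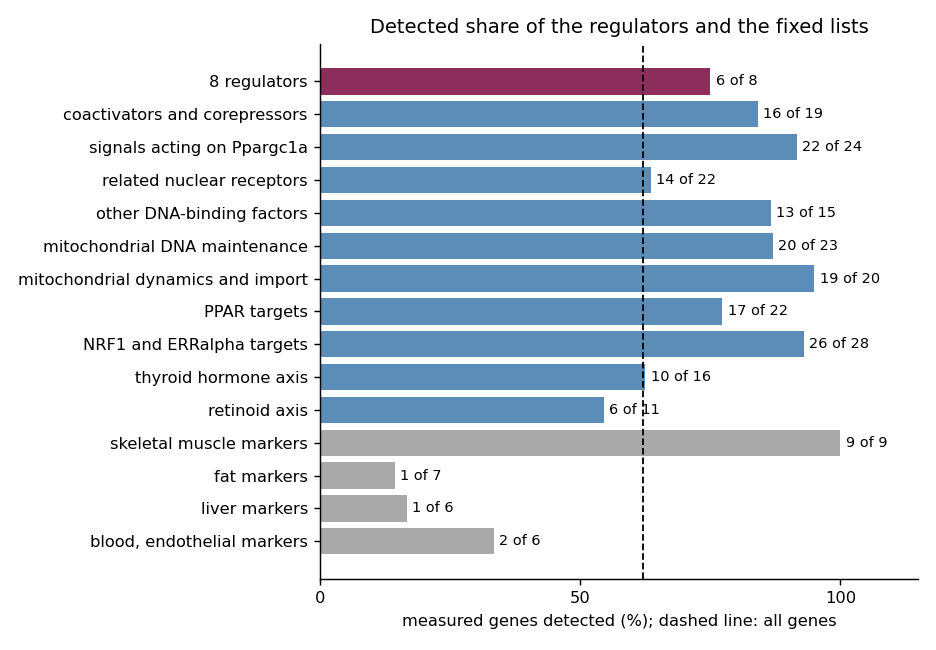
Percent of measured genes detected among the 8 regulators, the 10 pathway lists and the 4 marker lists, with counts beside the bars and the share of all genes (62.0%) as a dashed line. Mitochondrial dynamics and import (19 of 20) and the NRF1 and ERRalpha targets (26 of 28) lie to the right of it and the retinoid list (6 of 11) to the left. The bar of other DNA-binding factors also counts their partner proteins.

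Promoter matches were set beside detection over 12681 genes with both a promoter sequence and a probe set, of which 62.8% were detected. Genes with an NRF1 motif were detected in 911 of 1151 cases (79.1%), and those without in 61.2%. For the GABP motif the shares were 81.4% (726 of 892) and 61.4%, and for the CRE core 72.0% (1056 of 1466) and 61.6%. Genes with the ERRalpha motif were detected in 74 of 139 cases (53.2%), against 62.9% without. Promoter GC content moved with the motifs: its median was 65.0% with and 59.7% without the NRF1 motif, and 54.3% with and 60.3% without the ERRalpha motif.

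In the 6273 genes whose promoter GC content exceeded the median of 60.3%, 73.6% were detected. Among them the shares were 81.0% with and 72.5% without the NRF1 motif, and 83.8% with and 72.8% without the GABP motif. For the CRE core they were 77.4% and 73.1%, and for the ERRalpha motif 64.9% and 73.7%. The number of probe sets per gene bears on detection as well. Among genes with a promoter sequence and 1 probe set, of which 49.2% were detected, the shares were 70.4% with and 47.5% without the NRF1 motif. These shares are descriptions over genes, which are not replicates, and no test was made.

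**Figure D5:**
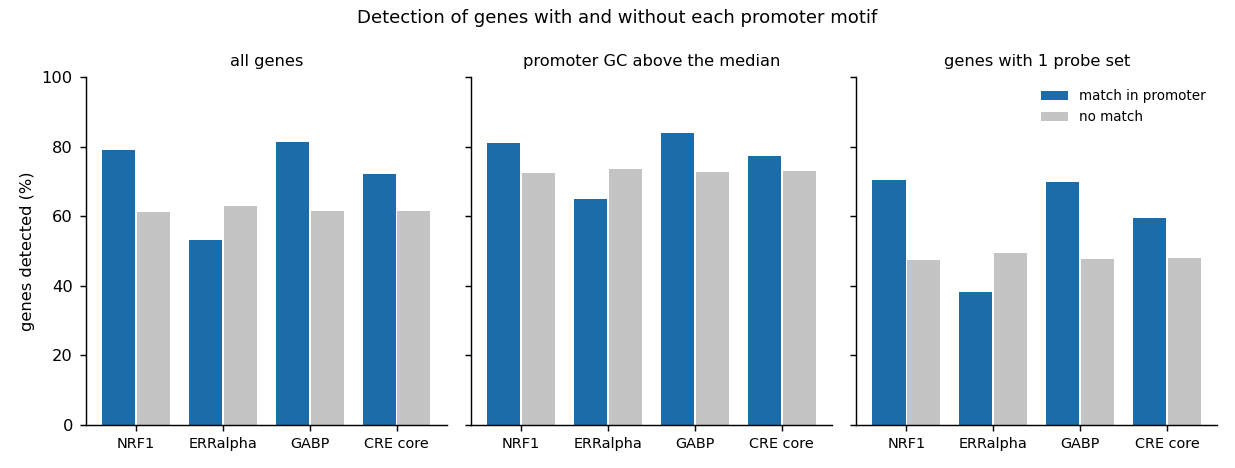
Percent of genes detected with (blue) and without (grey) a match to each promoter motif, for all genes, for genes with promoter GC content above the median and for genes with 1 probe set. The NRF1 and GABP bars exceed their grey neighbours in all 3 panels, and the ERRalpha bars lie below theirs.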

How the data were processed

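Signals are deposited as linear intensity per probe set. Per the submitters' processing notes the authors used MAS5, whose version and settings are not stated here, and no genome build is named. The trimmed mean, without the outer 2% at each end, was 1500.3 to 1501 on every array, so arrays share a common scale. Instrument settings are also deposited (unit other, per the file headers) and give chip type, chip lot, fluidics station and scan day. On U74Cv2, replicate 1 had another chip lot and another station than replicates 2 and 3, and the part of either was not tested. Scan day and design coincide and cannot be told apart.

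Control families whose median exceeded the design's median were left out of the limit, which rested on 20 controls on U74Av2 and U74Bv2 and 17 on U74Cv2, so the number of controls limits its precision. Gene symbols came from the platform annotation, and 99.7% of Entrez identifiers were found in RefSeq (GRCm38.p6). Of probe sets, 10833, 10581 and 7717 had 1 symbol on U74Av2, U74Bv2 and U74Cv2; 396, 178 and 150 had several and 1193, 1652 and 4001 none. A listed gene takes its probe set with the highest mean multiple of the limit. The genes named were all members, up to 3 detected genes of each list with the highest multiple, and the genes not detected where a list had 6 or fewer; relatives of the members and Nr1d1 were named after their values were seen. The members and lists were chosen with earlier results of these data known. Listed genes without a probe set of their own were not analysed here. Likeness of pattern was not used, since replicates of 1 condition hold none. Calculations used numpy 2.4.6 and pandas 2.3.3 under Python 3.11.15, with figures from matplotlib 3.10.9. No statistical test was made. Alternatives were another limit, quantile normalization, fewer arrays, each replicate left out, plain _at probe sets and a pseudocount of 100.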

Additional observations from a re-analysis of the deposited data

Results flagged for a closer look

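The probe set 166980_at on U74Cv2 is annotated to both Ppard and 1810013A23Rik and so was in none of the counts above. Its signals were 2342, 2421 and 1925, which was 2.68 ± 0.57 times the background limit (SD, n = 3) and above it on all 3 arrays. It is listed because it gave signal outside the measurements used. Which of the 2 genes it reads was not tested.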

How the results depend on the processing

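No paired analysis was possible because the data hold 1 condition and no result comes from a test. Main counts were 13 of 22 member probe sets, 6 of 8 member genes and 163 of 199 listed genes. With all control families kept in the limit they were 5, 4 and 97, and 23.4% of all genes were detected; Nrf1, Esrra, Ppard and Thra were the member genes left. Plain _at probe sets alone gave 10 of 18, 5 of 8 and 148 of 186. Over the other alternatives the counts ranged from 12 to 15, 5 to 7 and 160 to 174. Leaving out 1 replicate brought the median SD of log2 signal of the detected members from 0.134 to between 0.0666 and 0.0902, each SD then resting on 2 values in place of 3. The share detected with the ERRalpha motif was 53.2% over all genes and 64.9% (24 of 37 genes) with GC content above the median, where 73.7% of genes without it were detected, an alternative chosen after seeing the data. Readings close to the limit, such as those of Tfam and Ppara, are limited by the signal over background. In 44 comparisons with an alternative, some of them given above, the value stayed within its spread or within 1.5 times the count. These bounds are wide. They take in 4 member genes against 6 with all control families kept, and median deviations of the members close to 0 that changed sign.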

Other observations

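Among the markers of other cell types, Lep, the fat hormone leptin, lay at 6.3 ± 2.3 times the limit and Cyp2e1, a liver cytochrome, at 5.2 ± 0.4 times (SD, n = 3), each above the limit on all 3 arrays. Adipoq, Fabp4, Alb and Apoa1 of the same lists were not detected. Cd68 and Pecam1 were detected close to the limit, at 1.4 ± 0.2 and 1.4 ± 0.4 times (SD, n = 3).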
